A study of Mus musculus with 8 samples.

Results

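The 10 genes described here encode chaperones of the endoplasmic reticulum (ER) and components of the unfolded protein response. They were Hspa5, Hsp90b1, Pdia3, Pdia4, Pdia6, Calr, Canx, Dnajb9, Xbp1 and Herpud1, taken by gene symbol from a table of 39017 genes, and all 10 passed the expression filter that left 18952 genes for testing. They were measured in mouse embryonic fibroblasts from E13.5 embryos, by RNA sequencing after poly(A) selection. Control and Mettl3 knockout cells were compared, Mettl3 being the catalytic methyltransferase that writes N6-methyladenosine (m6A) on mRNA. The knockout was made with a Cre recombinase activated by 500 nM 4-hydroxytamoxifen for 48 h, and loss of Mettl3 was examined after 7 days. What drives the Cre, how many embryos or lines were used and whether control cells also received 4-hydroxytamoxifen are not given in the sources used here. Total RNA came from unstressed cells, and stress granule-enriched RNA came from cells of the same genotypes given 500 µM sodium arsenite for 30 min and was collected by centrifugation. Each genotype thus gave a total and a granule group, and each of the 4 groups held 2 biological replicates, 8 libraries in all. Stress and fraction changed together, so a difference between granule and total libraries combines both and they cannot be told apart.

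Proteins that enter the secretory pathway fold in the ER with the help of Hsp70-type and Hsp90-type chaperones, lectin chaperones that hold glycoproteins, and disulfide isomerases. When unfolded proteins accumulate, the sensors Ire1, Perk and Atf6 start the unfolded protein response. Ire1 splices Xbp1 mRNA into the form that encodes an active transcription factor, Atf6 is cut to release another, and together they raise transcription of chaperone and degradation genes. Perk phosphorylates eIF2alpha, which slows translation. Arsenite acts through the same phosphorylation site by another kinase, and untranslated mRNAs then gather in stress granules. Many chaperone mRNAs are translated on the ER membrane, where the ribosome feeds the new chain into the translocon.

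The promoter elements that link these genes to Atf6 and Xbp1 are shown first, because they divide the genes in a way the expression values can be set against. The search covered 32851 RefSeq promoter windows of the GRCm38.p6 build, each from 250 bases before to 50 bases after a transcription start, on both strands. The ER stress element was searched as CCAAT followed, after 9 bases of any kind, by CCACG, a site bound by NF-Y and Atf6. An exact match was found in 39 windows, 0.119% of all, and 5 of the 10 genes held 1 (Hspa5, Hsp90b1, Pdia6, Calr and Canx). The second ER stress element, ATTGG and CCACG with 1 base between them, was found in 12 windows, 0.0365% of all, and Herpud1 held it. TGACGTGG, the core of the unfolded protein response element, was found in 222 windows (0.676%) and in none of the 10. The 3 motifs were chosen because these genes are textbook examples of them, so the excess over other promoters is a description of the gene list. A match is only a stretch of letters, and the absence of an exact match in Pdia3, Pdia4, Dnajb9 and Xbp1 says only that these letters are not in these windows.

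The stretches below are reference sequence upstream of the RefSeq start, printed 5′ to 3′ on the gene's own strand, with the matched element in capitals. The Hspa5 stretch also lies inside the annotated Hspa5 gene (34771970 to 34777547), so it is printed with a short flank only. They lie at chr2:34772020-34772048 (Hspa5, plus strand), chr10:86705513-86705676 (Hsp90b1, minus), chr12:17266440-17266544 (Pdia6, plus), chr8:84847025-84847144 (Calr, minus), chr11:50325750-50325869 (Canx, minus) and chr8:94386322-94386428 (Herpud1, plus).
Hspa5: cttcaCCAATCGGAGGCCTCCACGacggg
Hsp90b1: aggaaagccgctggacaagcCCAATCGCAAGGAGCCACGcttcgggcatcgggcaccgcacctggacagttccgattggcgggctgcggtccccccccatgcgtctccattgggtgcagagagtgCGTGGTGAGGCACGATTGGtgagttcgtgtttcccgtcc
Pdia6: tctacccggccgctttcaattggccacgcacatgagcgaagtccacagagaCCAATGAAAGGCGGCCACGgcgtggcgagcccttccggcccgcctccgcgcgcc
Calr: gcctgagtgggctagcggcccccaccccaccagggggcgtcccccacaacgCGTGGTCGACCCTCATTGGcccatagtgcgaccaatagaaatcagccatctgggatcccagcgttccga
Canx: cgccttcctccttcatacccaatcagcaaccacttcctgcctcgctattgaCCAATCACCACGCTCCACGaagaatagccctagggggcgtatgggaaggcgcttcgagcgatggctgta
Herpud1: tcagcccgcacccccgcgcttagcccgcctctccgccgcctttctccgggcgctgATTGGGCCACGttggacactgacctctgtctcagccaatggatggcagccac

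The element of Hspa5 spanned bases 65 to 47 upstream of the start. Hsp90b1 held a pair, read forward from 212 to 194 and in reverse from 107 to 89 bases upstream. Pdia6 matched from 98 to 80, Canx from 145 to 127 and Calr, in reverse, from 162 to 144 bases upstream. The shorter element of Herpud1 lay closest to the start, from 52 to 42 bases upstream.

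**Figure D1:**
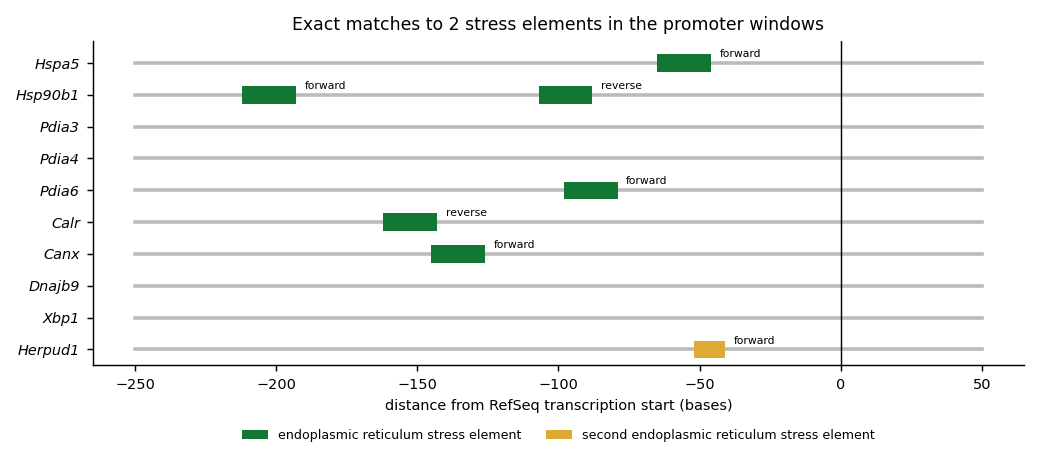
Position of exact matches to the ER stress element (green) and the second ER stress element (yellow) in the promoter window of each of the 10 genes. The horizontal axis is the distance from the RefSeq transcription start in bases, the grey line is the window searched, and the orientation is written beside each match. Hsp90b1 held 2 matches, 5 other genes held 1 each and 4 held none.

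Library depth was between 67257220 and 123508539 counts, and the lowest count of any of the 10, that of Dnajb9 in 1 library, was 584. Levels are given as CPM, the usual counts relative to library size, here after trimmed-mean-of-M-values scaling. Fibroblast markers summed to between 6266 and 9532 CPM per library with none of 12 at 0. Macrophage markers summed to 40.2 to 85.3 CPM, endothelial to 6.35 to 20.5, neural to 6.99 to 41.1, skeletal muscle to 1.58 to 5.28 and erythroid to 31.2 to 92.4. Of the defining markers, Sox2 was at 0 in 5 libraries and at most 0.018 CPM in the other 3. Others were not absent: Ptprc was at 16.7 to 41.8 CPM and Hbb-bs at 16.9 to 51.8. Elavl3, another neural marker, was at 2.89 and 3.38 CPM in knockout granule libraries and 0.108 to 0.301 in the rest. Epithelial markers summed to 74.2 to 364 CPM in total libraries and 538 to 744 in granule libraries, while Epcam stayed between 0.728 and 1.61 CPM. The part of these differences in the results was not tested. In control cells Mettl3 stood at 25.4 and 24.9 CPM in total and 15.7 and 15.4 in granule RNA, and in knockout cells at 6.01 and 7.35 in total and 5.56 and 6.38 in granule RNA. It was lower in every knockout library, with an edgeR adjusted p of 0.0345 in total RNA and 0.0208 in the granule fraction. With the replicate block these were 0.125 and 0.0549, where 0% and 3.54% of all genes were called. An edgeR fit of the total groups alone gave 0.407 and called 0% of all genes. That of the granule groups alone gave 1.14e-06, beside 57.3% of all genes. The call thus depended on the fit. With all 4 groups the log2 fold change of Mettl3 was -1.91 (SE 0.267) in total and -1.38 (SE 0.263) in granule RNA. In the fits of the compared groups alone it was -1.91 and -1.37. Other genes' exons overlap 18.4% of its exonic bases. The knockout total libraries stood apart from each other: protein-coding mitochondrial transcripts took 5.66% of counts in replicate 1 and 0.505% in replicate 2. Their share was 2.79% and 3.34% in the knockout granule libraries and 0.399% to 0.597% in the 4 control libraries.

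Of the 10 genes, only Herpud1 and Xbp1 changed between granule and total RNA at an edgeR adjusted p under 0.05, and both fell, in control and in knockout cells. In control cells this was 2 of 10, beside 10.1% of all tested genes called in either direction and 4.17% called lower. In knockout cells it was the same 2 of 10, beside 17.6% in either direction and 8.47% lower. Without knockout total replicate 1, the library that stood apart, 7 were called in control cells (Canx, Dnajb9, Hsp90b1 and Pdia3 higher, Calr, Herpud1 and Xbp1 lower), beside 40.6% of all genes, and 3 in knockout cells (Hsp90b1 higher, Herpud1 and Xbp1 lower), beside 34%. With all libraries, no gene of the 10 was called between knockout and control cells in total RNA, in the granule fraction or in the difference of the granule to total ratio between genotypes. The comparisons share libraries (each group enters more than 1 of them), so their values are set side by side and were not counted as separate evidence. In bulk RNA, fewer cells expressing a gene and less RNA per cell cannot be told apart.

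**Figure D2:**
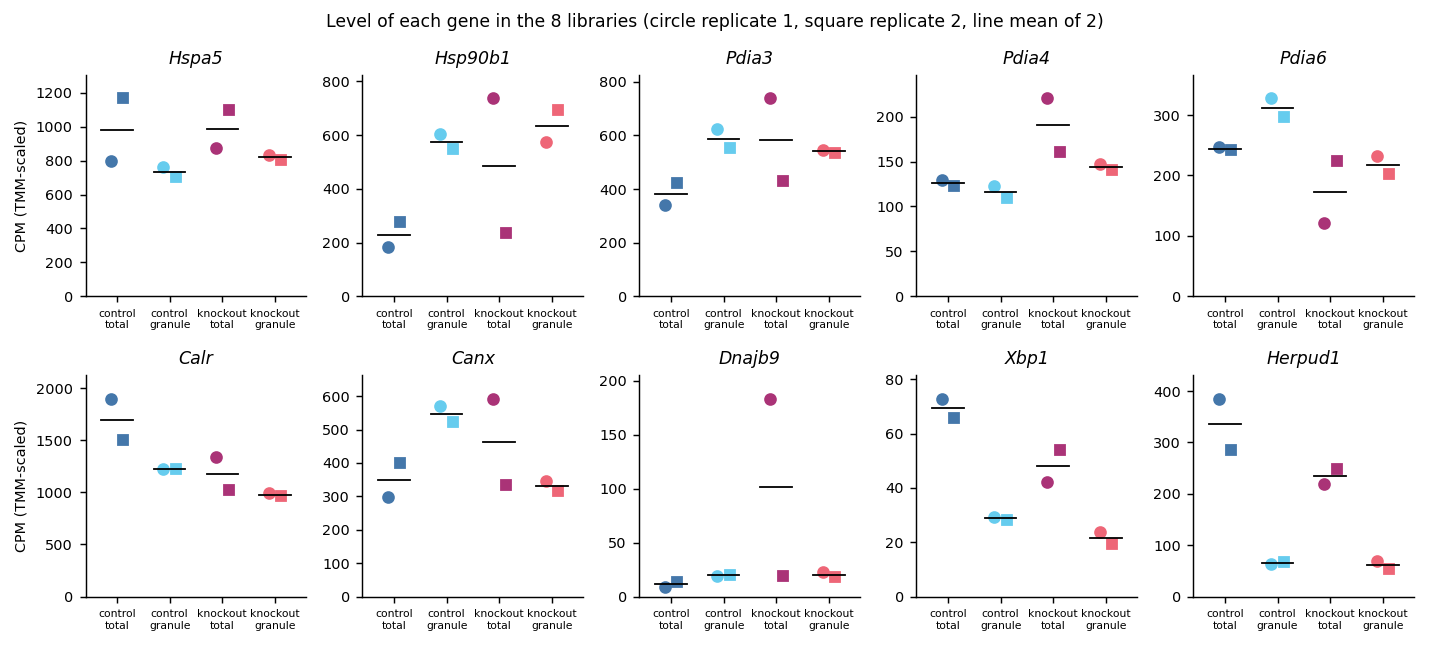
Level of each of the 10 genes in the 8 libraries, in CPM on a linear axis that starts at 0. Circles are replicate 1, squares replicate 2 and the line their mean. Herpud1 and Xbp1 are lower in all 4 granule libraries than in any total library, and knockout total replicate 1 lies far from its replicate for Dnajb9 and Hsp90b1.

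Herpud1 (chromosome 8, 94386438 to 94395377) encodes an ER membrane protein that assists ER-associated degradation, the disposal of misfolded proteins by the proteasome. It stood at 385.5 and 285.7 CPM in control total and at 63.5 and 67.1 CPM in control granule libraries. In knockout cells the total libraries had 219.5 and 248.5 CPM and the granule libraries 69.9 and 54.1. The groups did not overlap in either genotype, and the 4 granule libraries lay within a narrow band whatever the genotype. The log2 fold change of granule against total was -2.36 (SE 0.281, edgeR adjusted p = 0.00625) in control cells, 5.14-fold lower. In knockout cells it was -1.92 (SE 0.276, adjusted p = 0.00541), or 3.77-fold lower. The difference between genotypes was 0.446 (95% interval -0.422 to 1.31, adjusted p = 0.467).

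Xbp1 (chromosome 11, 5520659 to 5525893) encodes the transcription factor of the Ire1 branch. Gene counts do not separate its spliced from its unspliced mRNA, so the values below are the sum of both forms. Xbp1 stood at 72.9 and 65.9 CPM in control total and 29.5 and 28.3 in control granule libraries. The knockout total libraries had 42.0 and 53.8 CPM and the knockout granule libraries 23.7 and 19.2. Again every granule library lay below every total library. The log2 fold change was -1.27 (SE 0.266, edgeR adjusted p = 0.0276) in control cells and -1.16 (SE 0.265, adjusted p = 0.0238) in knockout cells, 2.40-fold and 2.24-fold lower. Both knockout total libraries were below both control total libraries, with a log2 difference of -0.53 (95% interval -1.14 to 0.069) that was not called (adjusted p = 0.241).

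Scaling by library size alone moved the median log2 fold change of all tested genes in the control comparison from -0.060 to -0.19, and Herpud1 and Xbp1 were lower and called on that scaling too. Across 18 alternative analyses the log2 fold change of Herpud1 ranged from -2.52 to -2.12 in control cells and from -2.18 to -1.74 in knockout cells. It was called in 14 and 15 of them. For Xbp1 the range was -1.40 to -1.08 in control and -1.39 to -1.02 in knockout cells, and it was called in 11 and 12 of 18. With replicate number as a block, Xbp1 was not called in either genotype and Herpud1 was. Leaving out any 1 of the 4 control libraries left neither gene called in the control comparison, and leaving out either knockout granule library left neither called in the knockout comparison, with directions unchanged. Few genes of any kind were called in those fits: 0.373% without control total replicate 1, 0% without each of the other 3 control libraries, and 1.47% and 1.22% without knockout granule replicates 1 and 2. In a fit of the knockout groups alone 0 of the 10 and 0% of all genes were called.

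**Figure D3:**
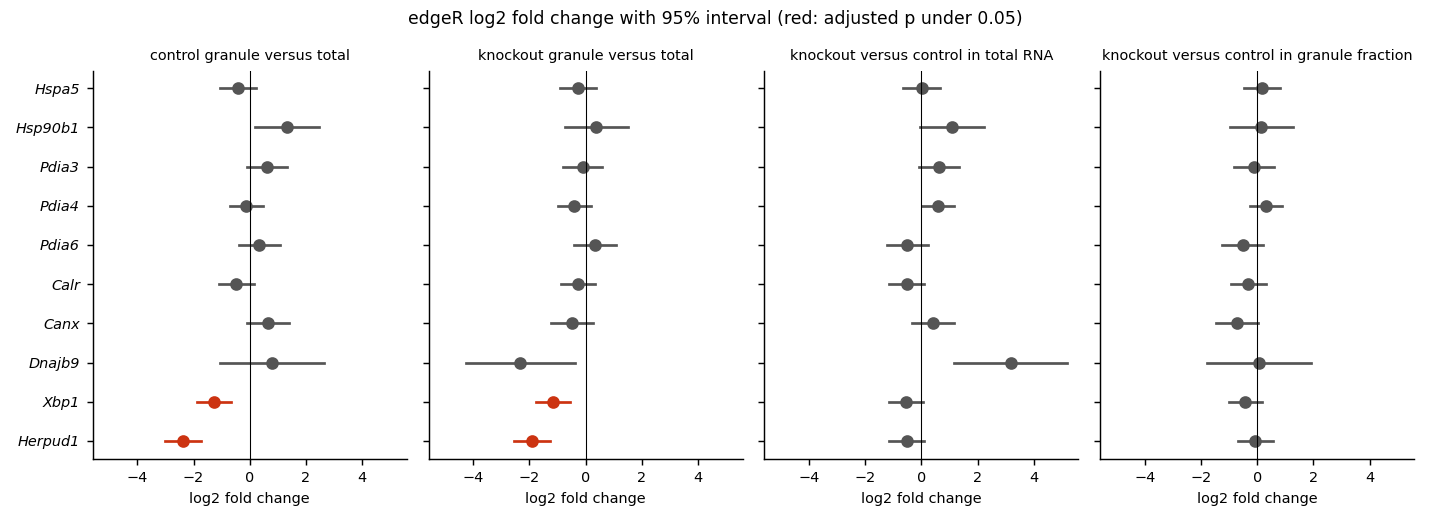
Log2 fold change from edgeR for the 10 genes in 4 comparisons, with the 95% interval as a line. Red marks an adjusted p under 0.05, which holds for Xbp1 and Herpud1 in both granule comparisons, while the intervals of Dnajb9 are the widest.

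Dnajb9 (chromosome 12, 44205559 to 44210326) encodes ERdj4, a J-domain cochaperone of the ER Hsp70 and a classical Xbp1 target. It had the lowest CPM of the 10 in every library but knockout total replicate 1, at 8.59 and 13.8 CPM in control total, 19.4 and 19.6 in control granule and 22.4 and 18.2 in knockout granule libraries. The knockout total libraries had 183 and 19.3 CPM. A single library was therefore 9.48 times its replicate, and the other 7 lay between 8.59 and 22.4 CPM. Knockout against control in total RNA had a log2 fold change of 3.18 (SE 0.872) that was not called (edgeR adjusted p = 0.137), although the groups did not overlap. Without knockout total replicate 1 the log2 granule to total value in knockout cells went from -2.32 to 0.060 and the knockout to control value in total RNA from 3.18 to 0.79, still not called (adjusted p = 0.105). Its knockout granule value, not called in the fit of all 4 groups (adjusted p = 0.0927), was called lower by DESeq2 (adjusted p = 0.00639), with no filter (1.4e-08), with the GC trend removed (0.0296) and without knockout total replicate 2 (1.84e-06), beside 22%, 17%, 32.5% and 48.2% of all genes. Dnajb9 had the lowest transcript GC content of the 10, 40.6%.

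Hspa5 (GRCm38 chromosome 2, 34771970 to 34777547) encodes BiP, the ER Hsp70, which binds unfolded chains and holds the sensors inactive. Its mRNA had 799 and 1168 CPM in total and 765 and 706 in granule RNA of control cells, and 874 and 1097 in total and 835 and 805 in granule RNA of knockout cells. The granule libraries lay below the total libraries in both genotypes, by a log2 of -0.42 (95% interval -1.06 to 0.226) in control and -0.27 (-0.91 to 0.38) in knockout cells, neither of them called. The 2 knockout total libraries lay inside the range of the control total libraries, with a log2 difference of 0.0034 (95% interval -0.641 to 0.648). An interval of that width does not show equal levels.

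Hsp90b1 (chromosome 10, 86690209 to 86705509) encodes Grp94, the ER Hsp90, which matures integrins, Toll-like receptors and other clients. It stood at 182 and 275 CPM in control total and 605 and 547 in control granule libraries. The knockout total libraries had 737 and 236 CPM and the knockout granule libraries 575 and 692. Thus 3 total libraries were between 182 and 275 CPM, and the 4 granule libraries and knockout total replicate 1 were between 547 and 737. The control granule value was 1.33 on the log2 scale (SE 0.496, edgeR adjusted p = 0.119), 2.52-fold higher and not called, and exons of other genes overlap 15.7% of the exonic bases of Hsp90b1. It was called higher with DESeq2, with no expression filter, in a fit of the control groups alone and when either knockout total library was left out. Of all genes these fits called 19.4%, 13.2%, 42.4%, and 40.6% and 39.9% without knockout total replicates 1 and 2. With the GC trend removed the value was 0.712 and not called (adjusted p = 0.126).

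Calr (chromosome 8, 84841850 to 84846934) and Canx (chromosome 11, 50293961 to 50325673) encode calreticulin and calnexin, the soluble and the membrane-bound lectin chaperone of glycoproteins. Control cells had 1901 and 1499 CPM of Calr in total and 1228 and 1222 in granule RNA. Knockout cells had 1339 and 1020 in total and 991 and 968 in granule RNA. Its granule libraries were the lower ones in both genotypes, by a log2 of -0.47 (SE 0.267) in control and -0.27 (SE 0.267) in knockout cells, and neither was called. Both knockout granule libraries were also below both control granule libraries (log2 -0.32, 95% interval -0.935 to 0.291). In total RNA both knockout libraries were likewise below both control libraries (log2 -0.53, 95% interval -1.14 to 0.086). Neither genotype difference of Calr was called in the fit of all 4 groups. Without knockout total replicate 1 the value in total RNA was -0.736. For Canx, control cells had 298 and 400 CPM in total and 571 and 522 in granule RNA. Knockout cells had 593 and 335 in total and 346 and 317 in granule RNA. Where control granule libraries were above control total ones, by a log2 of 0.65 (SE 0.324), the knockout groups overlapped, and the value was -0.49 (SE 0.324). The difference between genotypes for Canx was -1.13 (SE 0.458, edgeR adjusted p = 0.174), which was not called. It was -0.198 (adjusted p = 0.63) with the GC trend removed, and -1.66 and called (adjusted p = 0.000349) without knockout total replicate 2. Knockout against control granule RNA gave -0.72 (adjusted p = 0.192), with no overlap between the groups.

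Pdia3, Pdia4 and Pdia6 encode protein disulfide isomerases, which form and rearrange disulfide bonds, and Pdia3 (also ERp57) does so together with calnexin and calreticulin. They lie on chromosome 2 (121413775 to 121438687), chromosome 6 (47796141 to 47813430) and chromosome 12 (17266545 to 17284770). For Pdia3, control cells had 342 and 423 CPM in total and 624 and 552 in granule RNA, and knockout cells 739 and 429 in total and 547 and 536 in granule RNA. Its pattern followed that of Hsp90b1, with knockout total replicate 1 beside the granule libraries. Pdia4 was at 130 and 123 CPM in total and 122 and 110 in granule RNA of control cells, and at 220 and 160 in total and 147 and 140 in granule RNA of knockout cells. All 4 knockout libraries were above all 4 control libraries for Pdia4, by a log2 of 0.59 (95% interval 0.0037 to 1.17) in total and 0.31 (-0.279 to 0.889) in granule RNA, without a call in either (edgeR adjusted p = 0.200 and 0.467). Pdia6 was at 248 and 242 CPM in total and 328 and 297 in granule RNA of control cells, and at 121 and 224 in total and 233 and 202 in granule RNA of knockout cells. Such a separation of 4 from 4 libraries was seen upward in 4.39% of all tested genes and downward in 5.31%. For Pdia6 all 4 knockout libraries were below all 4 control libraries, by a log2 of -0.51 (95% interval -1.24 to 0.227) and -0.52 (-1.26 to 0.21), again without a call (adjusted p = 0.339 and 0.320). In the fit of all 4 groups no genotype difference of the 3 isomerases was called, so their directions only describe these libraries. Other fits called some of these differences, as given below.

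In control cells the groups of all 10 genes were free of overlap between granule and total RNA. Hsp90b1, Pdia3, Pdia6, Canx and Dnajb9 were higher in granule libraries, and Hspa5, Pdia4, Calr, Xbp1 and Herpud1 were lower. With 2 against 2 libraries this is common: 35.2% of all tested genes were higher and 37.3% lower without overlap. With the GC trend of each library removed, Canx (-0.19) and Dnajb9 (-0.19) changed sign. In knockout cells 5 genes were lower without overlap and none was higher, beside 26.5% and 31.5% of all genes. Between genotypes, 3 were higher and 4 lower without overlap in total RNA, beside 24.4% and 24.7%. In the granule fraction 2 were higher and 5 lower, beside 40.4% and 36.6%. The median log2 fold change of the 10 was 0.12 in control granule against total RNA (all genes -0.060) and -0.34 in knockout cells (all genes 0.038). It was 0.21 for knockout against control in total RNA (all genes 0.016) and -0.096 in the granule fraction (all genes 0.080). These medians depended on the processing: the control granule median was -0.28 with the GC trend removed, -0.009 with library-size scaling and -0.014 among genes averaging 5 CPM or more. In total RNA the genotype median was -0.263 with the GC trend removed, -0.005 without knockout total replicate 1 and -0.019 without control total replicate 1. In the granule fraction it was 0.083 among genes averaging 5 CPM or more. The knockout granule median was below 0 in each alternative, from -0.663 to -0.057.

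Genotype calls among the 10 rested on the libraries fitted. In total RNA 0 were called in the fit of all 4 groups, beside 0.412% of all genes, while 2 (Dnajb9 and Pdia4) had an unadjusted p under 0.05. DESeq2 called Dnajb9, beside 14.8% of all genes, and edgeR with no expression filter called Dnajb9 and Hsp90b1, beside 11.2%. Without knockout total replicate 2, which leaves replicate 1 alone in its group, edgeR called 7 (Canx, Dnajb9, Hsp90b1, Pdia3 and Pdia4 higher, Pdia6 and Xbp1 lower), beside 47.8% of all genes. Without replicate 1 it called 0, beside 5.52%. In the granule fraction 0 were called, beside 9.45% of all genes, 0 had an unadjusted p under 0.05, and DESeq2 also called 0, beside 16.1%. Canx and Pdia6 were called lower there without knockout total replicate 1, beside 39%, and these with Xbp1 without replicate 2, beside 38.9%. A fit of the granule libraries alone called 5 (Calr, Canx, Pdia6 and Xbp1 lower, Pdia4 higher), beside 57.3% of all genes. For the difference between genotypes in the granule to total value 0 were called, beside 0.517% of all genes, with Canx and Dnajb9 at an unadjusted p under 0.05 and Dnajb9 called by DESeq2, beside 15.5%. With no filter Dnajb9 was called too, beside 11.5%. It was 0 without knockout total replicate 1, beside 18.6%, and 5 without replicate 2 (Canx, Dnajb9, Hsp90b1, Pdia3 and Pdia4, all lower), beside 46.4%.

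The replicates of both total RNA groups differed along GC content, among all genes and among the 10. The log2 ratio of replicate 1 to replicate 2 in knockout total RNA was 3.25 for Dnajb9 (GC 40.6%) and 1.64 for Hsp90b1 (43.8%), and -0.18 for Herpud1 and -0.36 for Xbp1 (both 53.0%). It was lowest for Pdia6, at -0.89 (48.9%), and Hspa5 was at -0.33 with a GC content of 45.6%, so single genes departed from the order of GC content. Over the 10 genes its Spearman correlation with GC content was -0.77 in knockout total and 0.92 in control total libraries. It was -0.22 in control granule and 0.36 in knockout granule libraries. These correlations describe 10 genes within the same libraries, and the trend over 10261 genes had the same sign in the total libraries (-0.734 and 0.764), while over those genes it was -0.155 in control granule and 0.0413 in knockout granule libraries. The median absolute log2 ratio between replicates of the 10 genes was 0.123 and 0.163 in the granule groups and 0.385 and 0.623 in control and knockout total RNA. The part of GC content in the differences between groups was tested only by removing the trend, as given above.

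**Figure D4:**
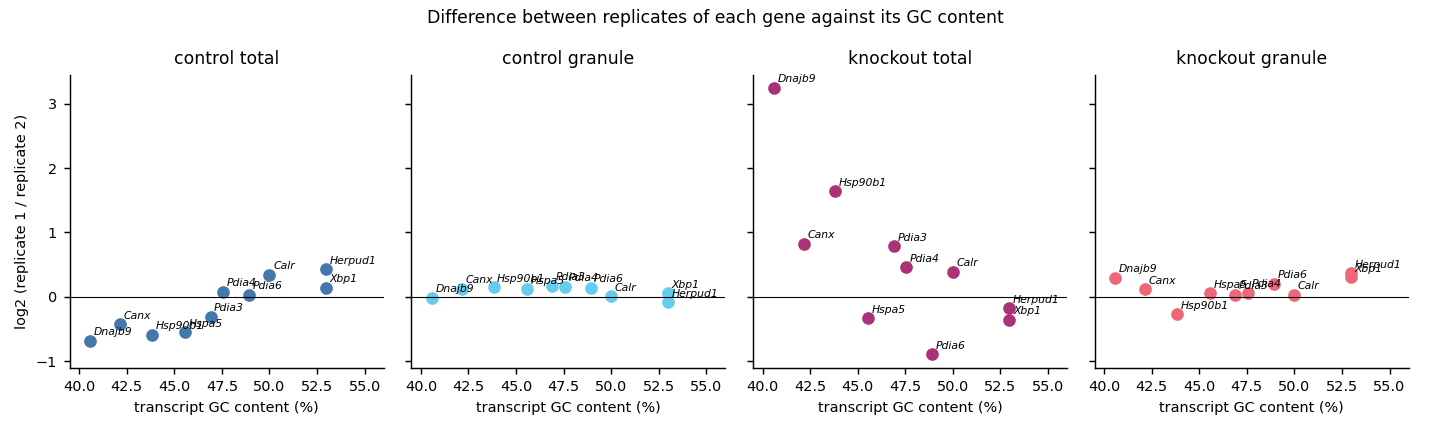
Log2 ratio of replicate 1 to replicate 2 of each gene (vertical axis) against the GC content of its longest transcript in percent (horizontal axis), with 1 panel per group and the same axes in all. The points fall from 3.25 to -0.89 in knockout total RNA, climb from -0.68 to 0.43 in control total RNA and stay within 0.4 of 0 in both granule groups.

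Per transcript length, Calr was the most abundant of the 10 in all 8 libraries. Its RPKM (CPM per kilobase of exon) were 590 ± 98.7 in total and 425 ± 1.58 in granule RNA of control cells (SD, n = 2). In knockout cells they were 410 ± 78.5 and 340 ± 5.62 (SD, n = 2). Hspa5 and Pdia3 followed at ranks 2 to 4 throughout. In control granule RNA their levels, 174 ± 9.93 and 187 ± 16.1 RPKM, did not differ beyond the spread, and Hsp90b1 came next at 143 ± 10.2, ahead of Canx at 117 ± 7.33. Pdia6 (83.4 ± 5.81), Pdia4 (48.4 ± 3.69) and Herpud1 (28.0 ± 1.11) were separated by more than their SDs, and Xbp1 (8.89 ± 0.257) and Dnajb9 (7.66 ± 0.0559) were last. This order depended on using the length of all exons together. Per kilobase of the longest transcript, Pdia6 (150.7 and 136.5) stood above Canx (133.4 and 122) in control granule RNA. Hsp90b1 (214.1 and 193.5) then stood beside Hspa5 (208.4 and 192.2). Herpud1 went from rank 3 and 4 in control total to rank 8 in all granule libraries, and Hsp90b1 ranged as widely, from 8 to 3. Dnajb9 ranked 8 to 10 and Xbp1 9 or 10 in every library.

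Across the 8 libraries, Xbp1 and Herpud1 had closely similar log2 CPM (Pearson r 0.963), as had Hsp90b1 and Pdia3 (r 0.929), whereas Pdia4 and Pdia6 ran opposite to each other (r -0.921). Without knockout total replicate 1 these were 0.975, 0.942 and -0.721 over 7 libraries. Hsp90b1 and Herpud1 were at -0.775 with that library and -0.988 without it. The 8 points form 4 groups that differ in treatment and share depth and GC trends, so these values describe the libraries. The 10 genes did not move as 1 unit in these libraries. The correlation of each with the mean of all 10 ran from -0.568 for Pdia6 to 0.756 for Dnajb9. That mean includes the gene itself, which raises these values. The genes outside the 10 most like that mean were Tbc1d31 (r 0.985), Vapa (0.976), Aaed1 (0.971), Lamc1 (0.970) and Pus7l (0.967), over 8 libraries. The mean itself was highest in knockout total replicate 1, at 0.733 SD units, and lay between -0.448 and 0.193 in the other 7.

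As transcripts the 10 were somewhat shorter and poorer in GC than other protein-coding genes tested. The median longest transcript was 2430 nt against 3027 nt over 15389 genes, and the median GC content 47.2% against 50.5%. GGACT, a frequent core of m6A sites, occurred at a median of 1.24 per kb against 1.06. It ran from 0.354 per kb in Hsp90b1 to 2.29 in Calr and 2.05 in Herpud1. No m6A map was used here, so which of these positions are methylated was not tested. The longest internal exon had a median of 222 nt against 218 nt.

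Other genes of the pathway were taken from 8 lists, to be read beside 5.89% of all genes called higher and 4.17% lower in control granule RNA, and 9.17% and 8.47% in knockout granule RNA. Between genotypes in granule RNA, 5.79% of all genes were called higher in knockout cells and 3.66% lower. Among 13 cofactors of the ER Hsp70 and Hsp90, 0 rose and 1 fell in control granule RNA (Cnpy2, from 184 and 195 to 79.8 and 86.3 CPM). In knockout granule RNA 0 rose and 1 fell, the nucleotide exchange factor Hyou1, from 232 and 423 to 149 and 126 CPM (log2 -1.25, SE 0.323, edgeR adjusted p = 0.0355). Of 11 disulfide formation genes edgeR called 0 in control granule RNA, where 4 had an unadjusted p under 0.05. DESeq2 called 1 there, beside 19.4% of all genes, and edgeR called 1 lower in knockout granule RNA. This was the ER oxidase gene Ero1l, at 207 and 86.3 CPM in knockout total and 19.0 and 16.9 in knockout granule libraries (log2 -3.03, SE 0.498, adjusted p = 0.00835). Of 7 genes of the glycoprotein folding cycle, Uggt1, the glucosyltransferase that returns unfolded glycoproteins to the lectins, had a log2 fold change of -0.98 in knockout granule RNA (SE 0.251, adjusted p = 0.0336). In control cells 0 of that list were called by edgeR or DESeq2, and 0 had an unadjusted p under 0.05. Over the alternatives, each of these 3 lists had from 0 to at most 5 genes called in a given direction in either granule comparison.

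Among 10 stress sensors and processing genes, 0 rose and 2 fell in control granule RNA, and 1 rose and 2 fell in knockout granule RNA. Over the alternatives 0 to 3 rose and 0 to 4 fell in control cells, and 0 to 2 rose and 0 to 5 fell in knockout cells. Ern1, which encodes Ire1alpha, had 48.4 and 55.9 CPM in control total and 19.7 and 15.4 in control granule libraries (log2 -1.57, SE 0.270, edgeR adjusted p = 0.0163). In knockout cells it had 78.3 and 69.9 CPM in total and 13.4 and 11.3 in granule libraries (log2 -2.58, SE 0.279, adjusted p = 0.00305). The mRNAs of this sensor and of its splicing substrate Xbp1 were thus both lower in granule RNA in both genotypes. Wfs1, an ER membrane protein gene, also fell in both (log2 -1.35 and -1.47), and Creb3l2 rose in knockout granule RNA. Of 18 ER-associated degradation genes 0 were called in control granule RNA by edgeR or DESeq2, while 3 had an unadjusted p under 0.05. In knockout granule RNA, Selenos and Ubxn4 rose and Herpud2 and Ube2j1 fell, with Herpud2 at 266 and 61.8 CPM in the knockout total libraries and at 36.7 and 30.2 in granule RNA. Edem1, a mannosidase-like degradation factor, was the 1 gene of that list called between genotypes in granule RNA, at 59.2 and 52.8 CPM in control and 30.2 and 26.9 in knockout libraries (log2 -0.97, adjusted p = 0.0473). Over the alternatives 0 to 5 degradation genes rose and 0 to 8 fell in knockout granule RNA, and 0 to 9 were lower in knockout than control granule RNA.

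Of 17 translocon and signal peptidase genes, Sec62 rose in both granule comparisons, from 57.9 and 77.6 to 203 and 191 CPM in control and from 213 and 91.2 to 410 and 469 CPM in knockout cells (log2 1.54 and 1.53). Spcs3, a signal peptidase subunit gene, was lower in knockout than control granule RNA, at 152 and 138 against 392 and 400 CPM. The alternatives called 0 to 5 of this list higher in control and 0 to 3 in knockout granule RNA, and 0 to 7 lower between genotypes in granule RNA. Other genes' exons overlap 11.7% of the exonic bases of Sec62.

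The integrated stress response is the arm that Perk shares with other eIF2alpha kinases, and 15 of its genes were listed. In control cells 0 rose and 10 fell (median log2 fold change -1.90), and in knockout cells 0 rose and 12 fell (median -1.62), beside medians of -0.060 and 0.038 for all genes. Over the alternatives the median ran from -2.031 to -1.713 in control and from -1.905 to -0.983 in knockout cells. Without either control granule library or without control total replicate 2, 0 fell in control cells, and without control total replicate 1, 3 did. Without either knockout granule library 1 fell in knockout cells. Those fits called at most 0.373% of all genes in control and 1.47% in knockout cells. Trib3 went from 529 and 397 to 22.3 and 25.5 CPM in control cells (log2 -4.28, SE 0.605, edgeR adjusted p = 0.0105). Asns, the asparagine synthetase gene, went from 444 and 389 to 67.2 and 61.8 CPM in knockout cells (log2 -2.69, SE 0.244, adjusted p = 0.00213). Atf4, the most abundant of the list per transcript length, had values of -0.79 and -0.80 that were not called (adjusted p = 0.0707 and 0.0517). In granule RNA, knockout against control, Ddit3, Nupr1 and Vldlr were higher and Asns and Psat1 lower, beside 5.79% and 3.66% of all genes. The replicate block left 2.5% and 1.04% of all genes called there, and DESeq2 called 7 of the list, beside 16.1%. The median of the list was 0.395 (all genes 0.080) and ran from 0.138 to 0.572 over the alternatives. Ddit3, which encodes Chop, was at 250 and 211 CPM in knockout and 92.5 and 89.2 in control granule libraries (log2 1.34, adjusted p = 0.0216), and 10.9% of its exonic bases are overlapped by other genes. The difference between this list and the 10 genes was not tested.

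Of 19 cytosolic chaperones 7 rose and 0 fell in control granule RNA (median 0.97), and 4 rose and 1 fell in knockout granule RNA (median 0.36). The control median ran from 0.846 to 1.077 over the alternatives. Without any 1 of the 4 control libraries 0 rose in control cells, where at most 0.373% of all genes were called, and without either knockout granule library 1 rose in knockout cells, beside 1.47% and 1.22% of all genes called. The knockout median ran from -0.132 to 0.592 over the alternatives, so its sign was not stable. Hsp90aa1, the cytosolic relative of Hsp90b1, had 280 and 402 CPM in control total and 3152 and 2993 in control granule libraries (log2 3.17, SE 0.370, edgeR adjusted p = 0.0063). In knockout cells it had 552 and 331 CPM in total and 3010 and 3996 in granule libraries (log2 2.99, adjusted p = 0.00377). Hspa1b, a stress-inducible cytosolic Hsp70 gene whose reads can be shared with its near-identical copy Hspa1a, had 14.4 and 12.7 CPM in control total and 107 and 119 in control granule libraries. Hspa5 and Hsp90b1 were not called in the same comparisons. Stip1, a cytosolic cochaperone gene, was lower in knockout than control granule RNA (log2 -1.14, adjusted p = 0.0415).

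**Figure D5:**
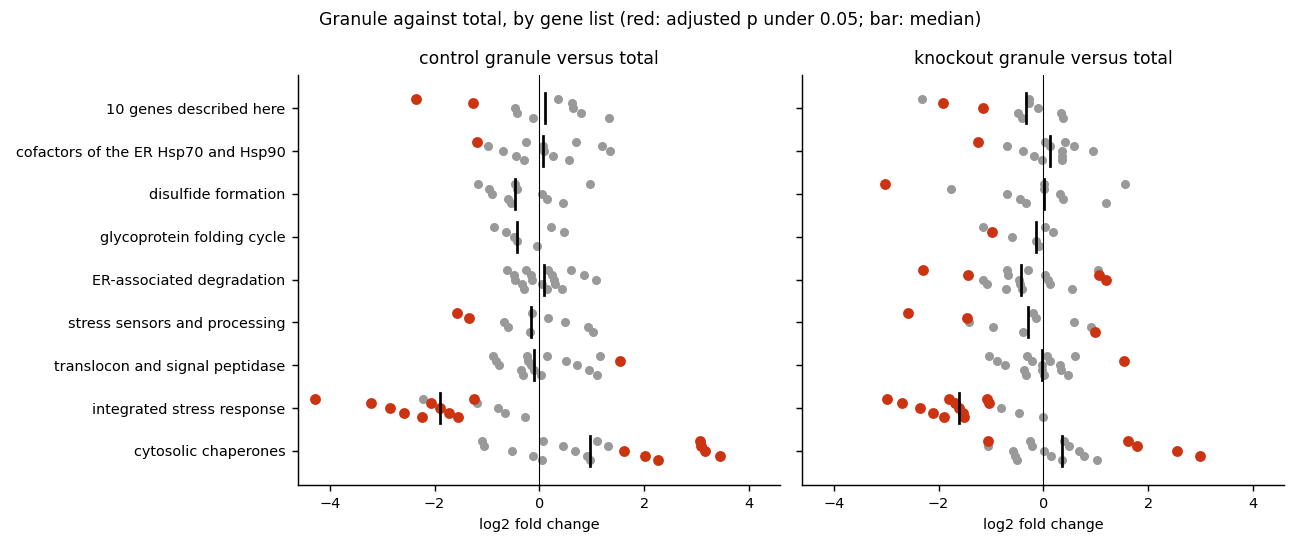
Log2 fold change of granule against total RNA for the 10 genes and 8 lists of related genes, control cells on the left and knockout cells on the right. Each point is a gene, red where the adjusted p is under 0.05, and the bar is the list's median. The integrated stress response medians lie at -1.90 and -1.62, the cytosolic chaperone medians at 0.97 and 0.36 (the latter from -0.132 to 0.592 over the alternatives), and the other lists have medians within 0.5 of 0.

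The genes that carry the ER stress element in their promoter were looked at together. Of 37 symbols with an exact match 23 were found among the tested genes under the same name, the 5 members among them. A gene named otherwise in the annotation was not counted, such as Ero1b, there called Ero1lb. In control granule RNA 1 was called higher and 1 lower, beside 5.89% and 4.17% of all genes. In knockout granule RNA 0 were higher and 1 lower, beside 9.17% and 8.47%. Between genotypes in total RNA edgeR called 0 and DESeq2 called 2, beside 0.412% and 14.8% of all genes. In granule RNA edgeR called 0 and DESeq2 called 1, beside 9.45% and 16.1%. An edgeR unadjusted p under 0.05 was reached by 5 in total and 1 in granule RNA. Its share over all genes was not counted. The median log2 fold change was -0.043 in control (all genes -0.060) and -0.035 in knockout granule RNA (all genes 0.038). Between genotypes it was 0.033 in total RNA (all genes 0.016) and -0.161 in granule RNA (all genes 0.080). For the difference between genotypes in the granule to total value it was -0.194 (all genes 0.089). Herpud1, the 1 gene of the 10 with the second element, fell in both genotypes, as did Xbp1, which held no match. In the fit of all 4 groups edgeR called none of the 5 genes with the first element, although Hsp90b1, Calr, Canx and Pdia6 were each called in other fits given above. The difference between genes with and without a match was not tested.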

How the data were processed

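RNA was measured in 8 libraries, 2 in each of 4 groups. The authors deposited raw counts per Ensembl gene, 1 column per library, not pooled. The submitters' processing notes name STAR, DESeq2, GRCm38 and mm10 without roles. The counting program, strand setting and annotation release are not given in the sources used here, so reads of overlapping or near-identical genes cannot be apportioned. Replicates are called biological in the design text, which does not say whether they are separate embryos or cultures, so p-values measure the spread between these samples.

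Identifiers were matched to GENCODE M21 (GRCm38), 37693 of 39017. Counts were analysed in R 4.3.3 with the edgeR 4.0.16 quasi-likelihood F-test (robust, trimmed-mean-of-M-values scaling, edgeR's expression filter), in 1 model with a mean per group, 4 residual degrees of freedom and 5 contrasts. Adjustment was by Benjamini-Hochberg over 18952 genes, with calls below 0.05. The share of all genes with an unadjusted p under 0.05 was not counted, so no share stands beside such counts. Standard errors came from the F statistic. RPKM used the length of all exons of a gene together. The script was tested on counts simulated with known fold changes and the fitted dispersions. These held no GC trend and no library that stood apart, so that test covers neither.

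The 10 genes, the lists and the motifs were chosen with earlier results of these data known. Named genes of a list are, per contrast, at most 2 called genes with the largest fold change, a mean of at least 5 CPM and groups without overlap. A list's most abundant gene could be named but need not be. All called genes are also named where a list had 5 or fewer, chosen after their values were seen. Genes most like the 10 are the 5 highest Pearson correlations with their mean standardised log2 CPM (prior count 2). Alternatives were other scalings, other filters, DESeq2 1.42.0, a replicate block, removal of the GC trend of each library (lowess, span 0.3), fits restricted to the groups compared, and the omission of each library in turn. Where that left 1 library in a group, it was assumed to vary like the others. A crossed block and the promoter and GC descriptions were added after the data were seen.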

Additional observations from a re-analysis of the deposited data

How the results depend on the processing

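Between 17 and 18 alternatives were run for each comparison, and the cause of a change was not tested. Counts of the 10 genes are to be read beside the share of all genes called in the same fit. With the replicate block that share was 3.07% in control and 10% in knockout granule RNA. Fits of only the groups compared called 42.4% in control and 0% in knockout granule RNA, and 57.3% between genotypes in granule RNA. Shares for the other fits named here stand with the calls above. The number of the 10 genes called in control granule against total RNA was 2, and 1 with the replicate number as a block, 3 with DESeq2 or no filter (each adding Hsp90b1), 6 in a fit of only the control groups and 0 to 7 when a library was left out. In knockout granule against total RNA it was 2, and 1 with the replicate block, 3 with DESeq2, no filter or the GC trend removed (each adding Dnajb9), 0 in a fit of only the knockout groups, which called 0 genes in all, and 0 to 8 when a library was left out (48.2% of all genes called beside the 8). For knockout against control in total RNA it was 0, and 2 with no expression filter, 1 with DESeq2 and 0 to 7 with a library left out. In granule RNA it was 0, and 5 in a fit of only the granule groups and 0 to 3 with a library left out. For the difference between genotypes it was 0, and 1 with no filter, 1 with DESeq2 and 0 to 5 with a library left out. The highest counts with a library left out came without knockout total replicate 1 in control cells and without knockout total replicate 2 elsewhere.

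Over all genes the calls ranged, with a library left out and in the other alternatives, from 0 to 8118 around 1906 in control granule RNA, from 0 to 9707 around 3343 in knockout granule RNA, from 0 to 9627 around 78 and from 0 to 10359 around 1791 between genotypes in total and granule RNA, and from 0 to 9349 around 98 for their difference. Of the integrated stress response genes 0 to 14 fell in control and 0 to 14 in knockout granule RNA. The replicate numbers do not pair libraries in the labels, and same-numbered deviations correlated between groups at -0.602 to 0.19 over genes. A block with the numbers of the knockout total libraries exchanged, added after the data were seen, called the same 2 genes as without a block in both granule comparisons and 0 in the others.

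Signs changed for values that were not called with all libraries, all on the log2 scale. With the GC trend removed, without and with the replicate block, granule against total RNA was -0.189 and -0.189 for Canx and -0.19 and -0.199 for Dnajb9 in control cells, and 0.06 and 0.068 for Pdia3 in knockout cells. Knockout against control in total RNA was -0.334 and -0.36 for Hspa5 and -0.302 and -0.3 for Canx, and in granule RNA 0.022 and 0.025 for Pdia3. The difference between genotypes became 0.106 and 0.106 for Pdia4, 0.176 and 0.206 for Pdia6 and -0.175 and -0.179 for Xbp1. With library-size scaling, Hspa5 in total RNA was -0.098, Herpud1 between genotypes in granule RNA 0.019 and the difference of Pdia6 0.146. With a mean of at least 5 CPM these were -0.015, 0.103 and 0.18, and Pdia3 in granule RNA was 0.063. With no filter Dnajb9 in granule RNA was -0.032 and the difference of Xbp1 -0.054. The difference of Pdia6 was 0.003 with the replicate block and 0.025 with the crossed one. With a library left out, these ranges crossed 0. For granule against total RNA in knockout cells they were Hsp90b1 -0.345 to 1.42, Pdia3 -0.576 to 0.33, Pdia6 -0.049 to 0.72 and Dnajb9 -3.31 to 0.06. For knockout against control in total RNA they were Hspa5 -0.246 to 0.363 and Canx -0.058 to 0.871. For the same in granule RNA they were Hsp90b1 -0.009 to 0.215, Dnajb9 -0.151 to 0.188 and Herpud1 -0.32 to 0.091. For the difference between genotypes they were Hspa5 -0.27 to 0.391, Hsp90b1 -1.721 to 0.078, Pdia6 -0.41 to 0.324, Calr -0.149 to 0.401 and Xbp1 -0.166 to 0.24.

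Per transcript length, 25 of 40 group levels moved by more than the replicate SD when the longest transcript replaced all exons together, and 8 of 40 did with library size alone. Depth did not limit these genes, since the lowest count was 584.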
